A study of Homo sapiens with 9 samples.

Results

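The subject is the expression profile of untreated HK-2 cells, the starting point of a time course of transforming growth factor β1 (TGFβ1). It rests on the 3 arrays of the series titled 0hrs, out of 9 arrays in all, chosen by their titles alone. HK-2 is a line of human proximal tubule epithelium, immortalised with papillomavirus oncogenes and grown as a monoculture. Per the labels, the cells carried the agent label untreated at 0 h and grew in DMEM-F12 with epidermal growth factor (EGF), hydrocortisone, triiodothyronine and an insulin, transferrin and selenium mix. No serum is named among these supplements. Plates were pooled within a day, so each array holds 1 of 3 runs on separate days and the standard deviation (SD) is a spread between runs of 1 line. The design text calls the control vehicle, the sample labels call it untreated, and a sample description mentions TGFβ1 at time 0; the agent label was followed. The treated arrays were not used.

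In the kidney, the proximal tubule takes back most of the filtered glucose, phosphate, amino acids and protein through apical transporters and the endocytic receptors megalin and cubilin, fuelled mainly by fatty acid oxidation. After injury these cells lose that equipment for a time, take on vimentin and other stress markers, and divide. Proximal tubule cells in culture are known to show a similar loss of specialised genes.

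Expression was read on a 1-colour Affymetrix array as deposited log2 values, 1 per probe set (a group of probes against 1 transcript). Each of 11963 named genes was represented by its brightest probe set, judged by the 3-array mean. A gene was called high at a mean log2 value of at least 8, mid from 4 up to 8, and near the array median below 4. Array medians were 2.23, 2.20 and 2.23. The 27 probe sets for bacterial transcripts, which human cells lack, had values of at most 2.32 on any single array. By their 3-array means, 5331 genes (44.6%) were at or below that value. Another 2467 genes lay above it but below 4. The class named near the array median therefore also holds genes above these controls, and the name does not mean background. The 9 hybridisation control probe sets, with values from 3.19 to 10.9, were not among these 27. A low value cannot be told from a probe set that does not work, and signal depends on the probes as well as on the transcript. A gene is therefore placed in a class and not ranked in abundance against other genes. Values below are mean ± SD on the log2 scale, n = 3.

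Of the 11963 genes, 962 (8.04%) were high, 3203 (26.8%) mid and 7798 (65.2%) near the array median, so that 34.8% were mid or high. These shares are the background for each gene list below. The median gene lay at 2.65. Near the limits, ARMH3 (4.002 ± 0.14) and AGTPBP1 (4.005 ± 0.20) were just inside the mid class and SCAMP2 (3.998 ± 0.35) and RALGAPB (3.998 ± 0.79) just outside it. MRPS22 (8.002 ± 0.31) and BBIP1 (8.003 ± 0.20) were just inside the high class, with IFI16 (7.996 ± 0.54) and CRIM1 (7.995 ± 0.57) just below. In 625 genes the 3 arrays fell on both sides of 4, and in 274 on both sides of 8.

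**Figure D1:**
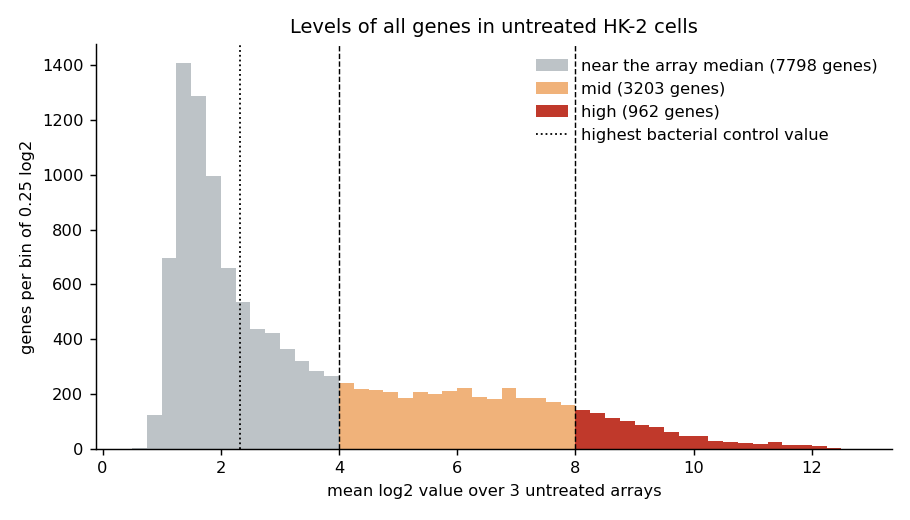
Histogram of the mean log2 value of 11963 genes over the 3 untreated arrays, in bins of 0.25, coloured by class with dashed lines at the limits of 4 and 8 and a dotted line at the highest bacterial control value of 2.32. Most genes form a single peak below 4, and the 962 high genes form the right tail.

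Among the 20 genes with the highest means, 13 encoded ribosomal proteins, led by RPL37A (12.43 ± 0.04) and RPL41 (12.42 ± 0.02). The other 7 were the thymosins TMSB4X (12.35 ± 0.10) and TMSB10 (12.33 ± 0.03), which bind actin monomers, the elongation factor EEF1A1 (12.25 ± 0.12), the glycolytic enzyme GAPDH (12.24 ± 0.06), beta-actin ACTB (12.24 ± 0.11), ubiquitin UBB (12.15 ± 0.06) and the tumour protein TPT1 (12.01 ± 0.07). All 20 had means of at least 11.89 and SDs of at most 0.125. Several belong to families with many near-identical copies, so their probes can collect signal from relatives. Of 15 measured ribosomal protein genes, from a list of 26, 14 were high. RPLP2 was near the array median on its brightest probe set (1.93 ± 0.18) and at 1.61 on the other, which shows that a low value can come from a transcript that every cell uses.

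Kidney genes were read on lists chosen with earlier results of these data known, so they are no independent check of the line's label. PAX8, a transcription factor of the developing and adult tubule, was mid at 7.36, 7.39 and 7.34 on replicates 1 to 3. The arrays did not separate for this gene, and the 7 other PAX8 probe sets had means from 1.97 to 7.02. HOXC6 (6.04 ± 0.03) and HOXB7 (5.85 ± 0.18), homeobox genes of body position, and SALL1 (5.31 ± 0.60), a regulator of nephron progenitors, were also mid. The other 14 of 18 measured kidney transcription factors were near the array median, including PAX2 (1.91 ± 0.27), the nephron progenitor factor SIX2 (2.14 ± 0.08), LHX1 (1.53 ± 0.12) and WT1 (1.67 ± 0.28).

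Specialised proximal tubule genes were mostly near the array median. Of 24 transporters, 1 was high and 2 were mid (12.5% mid or high, against 34.8% of all genes), and 1 was mid or high with the mean over all probe sets. FXYD2, the gamma subunit of the sodium pump, was high at 9.50, 9.34 and 9.28, with its values on all arrays above the limit of 8; its only probe set is of a kind that can match related sequences. SLC3A1, the heavy chain of the cystine transporter, was at 4.67, 5.38 and 4.30, and SLC4A4, the basolateral sodium bicarbonate cotransporter, was at 4.18, 3.86 and 4.72, crossing the limit of 4 on replicate 2. The other SLC3A1 probe set had a mean of 1.52. The phosphate transporter SLC34A1 (1.84 ± 0.14), the glucose transporters SLC5A2 (2.16 ± 0.05) and SLC2A2 (1.66 ± 0.27), the sodium proton exchanger SLC9A3 (1.44 ± 0.06), the organic anion transporters SLC22A6 (1.79 ± 0.07) and SLC22A8 (1.69 ± 0.16) and the water channel AQP1 (1.56 ± 0.04) had values in the range of the bacterial controls.

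Of 25 proximal tubule enzymes, endocytic receptors and scaffolds, 6 were mid and 0 high (24%). The mid genes were PDZK1IP1 (7.71 ± 0.19), a small membrane protein of the brush border, ASS1 (6.41 ± 0.27), an enzyme of arginine synthesis, CRYM (6.38 ± 0.98), a thyroid hormone binding protein, PDZK1 (6.11 ± 0.74), a brush border scaffold, ENPEP (6.01 ± 0.61), the aminopeptidase that cleaves angiotensin, and PCK2 (4.62 ± 0.24), the mitochondrial form of a gluconeogenic enzyme. CRYM took values of 7.36, 6.38 and 5.40, a spread of 1.95 between replicates 1 and 3. Megalin LRP2 (1.36 ± 0.14), cubilin CUBN (1.57 ± 0.07), the brush border peptidases ANPEP (1.40 ± 0.09) and MME (1.76 ± 0.11), and the gluconeogenic enzymes PCK1 (1.65 ± 0.22), FBP1 (1.57 ± 0.25) and G6PC1 (0.98 ± 0.36) were near the array median. The peptidase DPP4 (3.84 ± 0.92) was at 4.40, 2.78 and 4.34, so its class depended on the run.

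Genes on the tubular injury and progenitor list stood at the other end. Of 17 measured, 5 were high and 9 mid (82.4% mid or high). The high genes were SPP1, which encodes the secreted phosphoprotein osteopontin (11.05 ± 0.20), the surface proteins CD24 (10.71 ± 0.24) and CD44 (9.25 ± 0.31), the matricellular CCN1 (10.07 ± 0.17) and the transcription factor SOX4 (8.57 ± 0.07). All 6 CD24 probe sets had means above 9, from 9.31 to 10.71. HAVCR1, the injury marker KIM-1 of the proximal tubule, was mid at 7.33, 7.15 and 7.17. GDF15, a stress cytokine, was at 6.93, 7.96 and 6.69, with replicate 2 apart from the others. CLU (6.60 ± 0.08), VCAM1 (5.08 ± 0.47) and SOX9 (4.79 ± 0.71) were mid. NHERF1, a scaffold protein also counted on this list, was mid with a mean of 4.85. LCN2 (2.07 ± 0.13), ATF3 (2.78 ± 0.37) and PROM1 (1.27 ± 0.23), the stem cell antigen CD133, were near the array median.

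Genes of other nephron segments were measured too. Of 13 genes of the loop of Henle and distal tubule, 1 was mid (7.69%), the potassium channel KCNJ16 at 7.58, 6.03 and 6.76, while the sodium cotransporters SLC12A1 (1.17 ± 0.20) and SLC12A3 (1.24 ± 0.12) were not above the bacterial controls. Of 15 collecting duct genes 2 were mid (13.3%). SCNN1A, a pore-forming subunit of the epithelial sodium channel ENaC, was mid at 6.11, 6.89 and 6.22, and carbonic anhydrase CA2 was mid (5.39 ± 0.37). The other SCNN1A probe sets had means of 3.82 and 3.74. The partner subunits SCNN1B (1.41 ± 0.08) and SCNN1G (1.62 ± 0.03) and the water channel AQP2 (1.69 ± 0.07) were near the array median. Of 13 podocyte genes 4 were mid or high (30.8%, near the 34.8% of all genes). PTPRO, a receptor tyrosine phosphatase, was high at 10.70, 10.51 and 10.20. Its other probe set had a mean of 1.61, so the call rests on 1 probe set. CD2AP (7.38 ± 0.42), ACTN4 (7.82 ± 0.16) and nestin NES (4.14 ± 0.38) were mid, and the defining slit diaphragm gene NPHS1 (1.84 ± 0.22) and PODXL (1.82 ± 0.09) were near the array median.

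**Figure D2:**
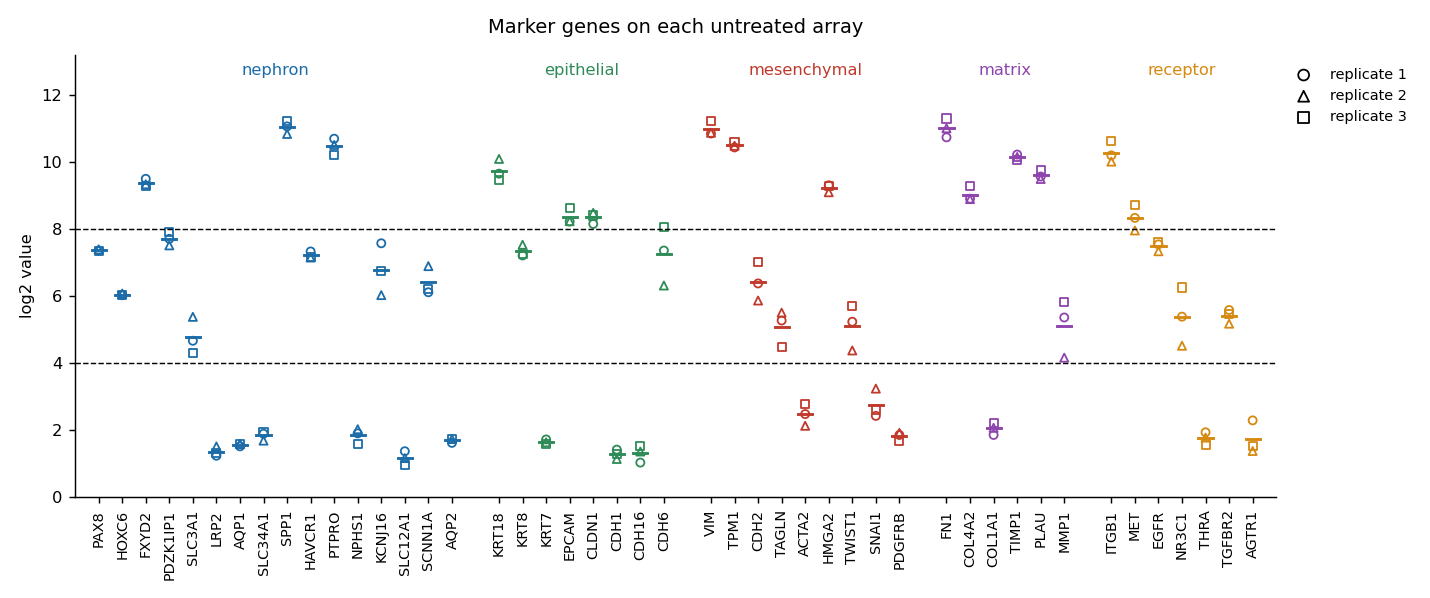
Log2 value of 46 marker genes (x axis, grouped by family) on each of the 3 untreated arrays, with a bar at the mean and dashed lines at the class limits of 4 and 8. PAX8, SPP1, KRT18, VIM and FN1 lie in the mid or high class on every array, while LRP2, AQP1, CDH1, COL1A1 and PDGFRB lie near the array median on every array.

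Promoters of 2 groups are shown as examples of named elements at the ends of the range: tubule segment genes, mostly near the array median, and cell cycle genes, all mid or high. Sequences are RefSeq promoters of build GRCh38.p14, matched by gene ID for 9562 of the 11963 genes and read from 250 bases before to 50 after the annotated start. Motifs were searched on both strands. TATAAA, the core of the TATA box, was in 8.3% of these 9562 promoters and in 12% of all 27305 promoters of the table. It began 35 to 25 bases before the start, its usual place, in 3.96% of the 9562. Of 59 promoters from the proximal tubule, distal and collecting duct lists, 14 (23.7%) held TATAAA and 10 (16.9%) held it in that window. CCAAT, bound by the factor NF-Y, was in 37.3% of the 9562 promoters and in 19 of 23 (82.6%) of the cell cycle promoters, 14 of which held at least 2 copies. CCAAT was also in 19 of the 59 tubule promoters (32.2%), and TATAAA in 2 of the 23 cell cycle promoters (8.7%). Other lists with many mid or high genes held them as well: TATAAA was in 33.3% of 15 promoters of the oxidative stress list, 22.7% of 22 of the cytokine list and 45.5% of 11 of the epithelial surface list, and CCAAT in 72.7% of 11 of the antigen presentation list. The letters of a promoter were not used to place a gene in a class.
The 250 bases before the start are given below, 5′ to 3′, with the named motifs in capitals: TATAAA and, on the other strand and so printed as its reverse complement, CCAAT in SLC34A1 (chr5:177384184-177384433, + strand), TATAAA in AQP1 (chr7:30911603-30911852, + strand), and CCAAT in the cyclin CCNB1 (chr5:69166900-69167149, + strand) and its kinase CDK1 (chr10:60778081-60778330, + strand).
SLC34A1: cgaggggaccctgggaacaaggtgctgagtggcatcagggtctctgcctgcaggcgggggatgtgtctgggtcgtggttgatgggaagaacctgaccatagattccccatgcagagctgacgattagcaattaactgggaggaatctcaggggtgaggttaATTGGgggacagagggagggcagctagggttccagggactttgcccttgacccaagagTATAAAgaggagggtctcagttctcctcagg
AQP1: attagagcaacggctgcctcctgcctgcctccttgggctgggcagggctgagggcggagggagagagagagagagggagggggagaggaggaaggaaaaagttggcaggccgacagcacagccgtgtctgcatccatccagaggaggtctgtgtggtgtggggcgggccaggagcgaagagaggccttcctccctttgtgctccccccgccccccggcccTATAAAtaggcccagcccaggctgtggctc
CCNB1: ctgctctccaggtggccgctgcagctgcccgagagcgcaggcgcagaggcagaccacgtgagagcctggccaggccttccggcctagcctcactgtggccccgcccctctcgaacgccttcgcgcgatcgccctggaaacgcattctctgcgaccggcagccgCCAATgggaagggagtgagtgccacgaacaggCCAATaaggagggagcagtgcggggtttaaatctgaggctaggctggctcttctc
CDK1: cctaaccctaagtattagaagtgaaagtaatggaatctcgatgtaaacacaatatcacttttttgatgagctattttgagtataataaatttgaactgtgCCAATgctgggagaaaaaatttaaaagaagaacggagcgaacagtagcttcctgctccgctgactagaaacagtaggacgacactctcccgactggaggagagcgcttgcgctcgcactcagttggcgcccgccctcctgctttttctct
The TATAAA begins 31 bases before the start in SLC34A1, whose CCAAT begins 89 bases before it, and 30 bases before it in AQP1. The CCAAT boxes of CCNB1 begin 87 and 55 bases before the start, and that of CDK1 150 bases before it. SLC34A1 (1.84 ± 0.14) and AQP1 (1.56 ± 0.04) were near the array median, and CCNB1 (8.80 ± 0.19) and CDK1 (8.60 ± 0.16) were high.

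By class, TATAAA was in 7.29% of 809 promoters of high genes, 5.21% of 2725 of mid genes and 9.84% of 6028 of genes near the array median. CCAAT was in 43.3%, 37.9% and 36.2%, and the GC box GGGCGG in 70.8%, 72.9% and 57.6%. The median number of CpG pairs in a promoter was 26, 27 and 21. The AP-1 site TGANTCA was in 5.56%, 4.07% and 6.02%.

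Epithelial genes were split between a small high set and a larger set near the array median. Of 17 measured keratins, 3 were high and 1 mid (23.5% mid or high). KRT18 was at 9.65, 10.09 and 9.48, KRT19 at 8.93, 9.13 and 9.06, and KRT10, a keratin of stratified epithelium, at 8.75, 8.62 and 8.83. KRT8, the partner of KRT18 in simple epithelia, was at 7.21, 7.53 and 7.26. KRT8 and KRT18 were each read by 1 probe set of the kind that can match related sequences. KRT7 (1.65 ± 0.07), KRT20 (2.08 ± 0.42) and the basal keratins KRT5 (1.30 ± 0.10) and KRT14 (1.40 ± 0.29) were near the array median.

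Of 24 adherens junction and desmosome genes, 1 was high and 8 were mid (37.5%). E-cadherin CDH1 was near the array median on both probe sets (means 1.28 and 1.23), as was the kidney cadherin CDH16 (1.31 ± 0.25). N-cadherin CDH2 was mid at 6.38, 5.87 and 7.02, and CDH6, a cadherin of the proximal tubule and its precursors, was mid at 7.36, 6.31 and 8.06. Both took their lowest value on replicate 2 and their highest on replicate 3. The other CDH2 probe set had a mean of 3.20, near the array median. Vinculin VCL was high (8.63 ± 0.11), and the catenins CTNNB1 (7.46 ± 0.38) and CTNNA1 (6.98 ± 0.45) and the desmosomal cadherin DSG2 (6.92 ± 0.41) were mid. Desmoplakin DSP (3.36 ± 0.34), plakoglobin JUP (2.81 ± 0.22), PKP2 (1.71 ± 0.26) and DSC2 (1.47 ± 0.10) were near the array median.

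Of 23 tight junction and polarity genes, 2 were high and 2 mid (17.4%). Claudin CLDN1 was the only one of 14 measured claudins above the limit of 4, at 8.15, 8.48 and 8.41. The kinase PRKCI was high (8.88 ± 0.31), and the scaffolds TJP1 (7.75 ± 0.32) and PARD3 (5.70 ± 0.28) were mid. Occludin OCLN (1.71 ± 0.10), CLDN3 (1.75 ± 0.21), CLDN7 (1.25 ± 0.03) and CLDN10 (1.63 ± 0.03) were near the array median. Of 19 epithelial surface proteins and regulators, 1 was high and 8 mid (47.4%). The adhesion molecule EPCAM was high at 8.22, 8.24 and 8.63. The protease inhibitor SPINT2 (7.96 ± 0.13), the tetraspanin CD9 (7.42 ± 0.20), the RNA-binding protein RBM47 (7.01 ± 0.58) and the apical sorting protein MAL (6.80 ± 0.55) were mid. The splicing regulator ESRP1 (1.47 ± 0.09) and the epithelial transcription factors GRHL2 (1.18 ± 0.14) and OVOL1 (1.43 ± 0.08) were near the array median, and ELF3 was at 4.47 ± 0.11.

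**Figure D3:**
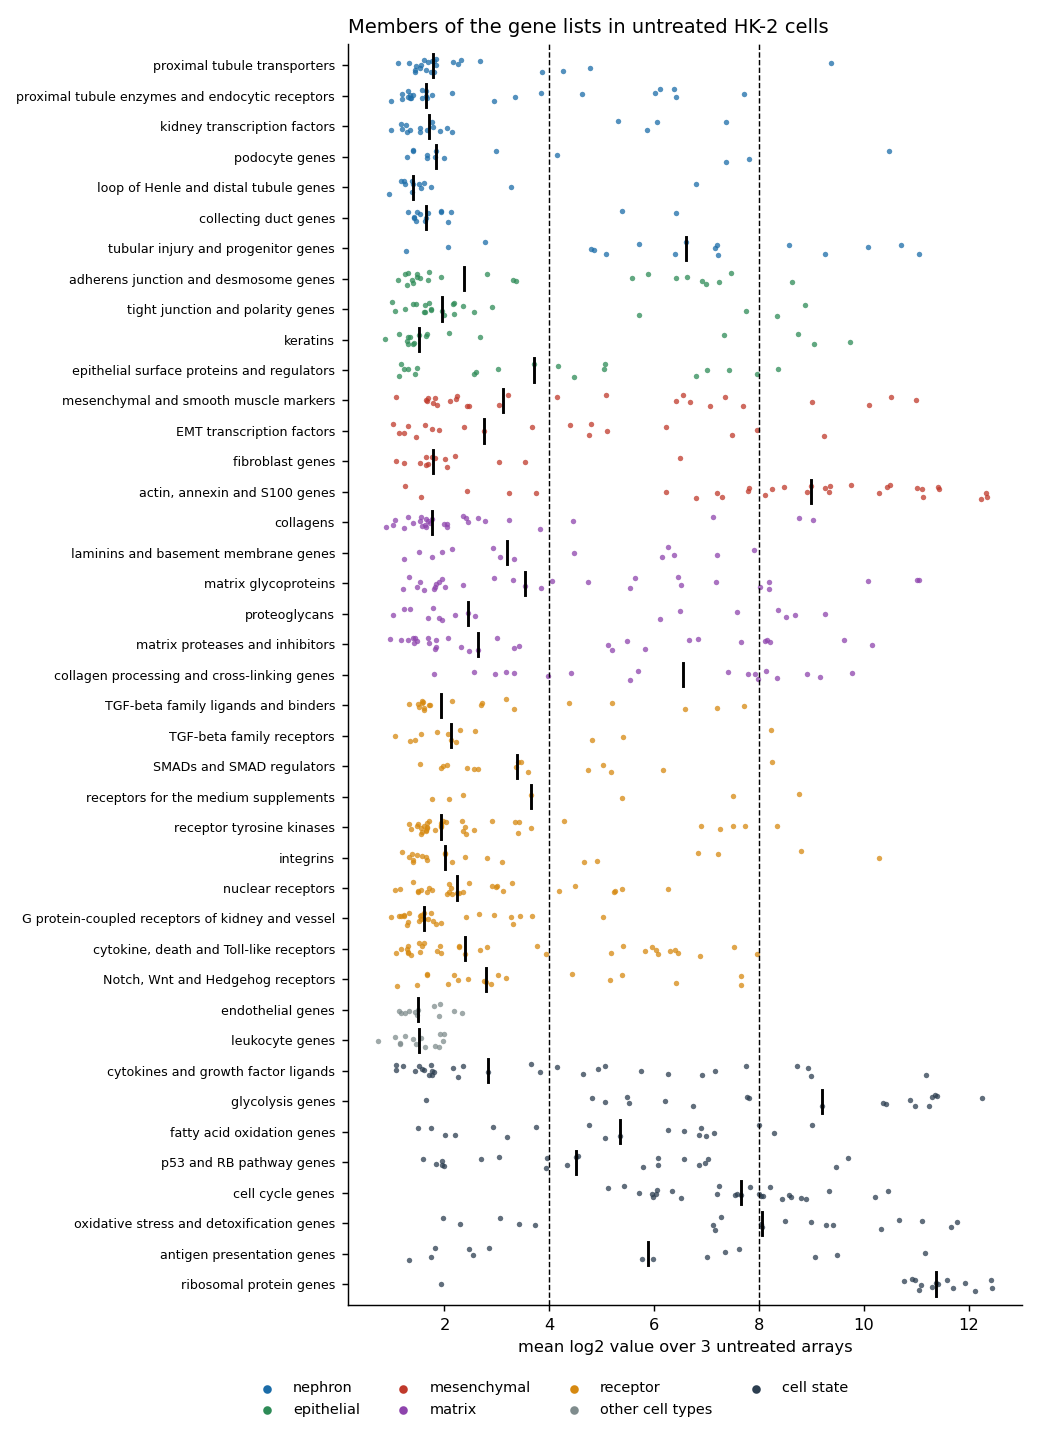
Mean log2 value of every measured member of the 41 gene lists over the 3 untreated arrays, 1 dot per gene, with a black bar at the list median and dashed lines at the class limits of 4 and 8. Endothelial and leukocyte genes all lie below 4, all 27 cell cycle genes lie above 4, and most other lists are split.

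Mesenchymal genes were likewise split. Of 85 measured, 25 were high, 22 mid and 38 near the array median (55.3% mid or high, beside 34.8% of all genes). Of the 25 high genes, 20 were on the actin, annexin and S100 list, which had 83.9% mid or high. The lists of mesenchymal and smooth muscle markers, transition factors and fibroblast genes had 46.2%, 42.1% and 7.14%. The family share is therefore no measure of mesenchymal markers alone. Cytoskeletal and muscle genes lay on both sides. Of 26 mesenchymal and smooth muscle markers, 4 were high and 8 mid (46.2%). Vimentin VIM, the intermediate filament of mesenchymal and injured tubule cells, was at 10.85, 10.88 and 11.22. Tropomyosin TPM1 (10.51 ± 0.09), caveolin CAV1 (10.09 ± 0.10) and TAGLN2 (9.01 ± 0.13) were high, and the ectoenzyme NT5E (7.70 ± 0.71), caldesmon CALD1 (7.35 ± 0.32) and the myosin light chain MYL9 (7.07 ± 0.57) were mid. Smooth muscle actin ACTA2 was at 2.48, 2.13 and 2.79, and CNN1 (2.23 ± 0.14), MYH11 (2.11 ± 0.05), desmin DES (1.86 ± 0.13) and S100A4 (2.43 ± 0.10) were near the array median too. TAGLN, an actin-binding protein, was at 5.27, 5.51 and 4.48. Of 14 fibroblast genes, 1 was mid, the small proteoglycan LUM (6.23, 6.41 and 6.81). The defining fibroblast genes PDGFRA (1.64 ± 0.19), PDGFRB (1.81 ± 0.13), FAP (1.07 ± 0.06) and DCN (2.20 ± 0.66) were near the array median.

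Of 31 actin, annexin and S100 genes, 20 were high and 6 mid (83.9%), among them galectin LGALS1 (11.42 ± 0.09), cofilin CFL1 (11.10 ± 0.01), annexin ANXA2 (11.01 ± 0.06) and its partner S100A10 (11.12 ± 0.09). The 5 near the array median were paxillin PXN (3.74 ± 0.30), talin TLN1 (3.24 ± 0.13), S100A4, S100A9 (1.55 ± 0.10) and S100A8 (1.26 ± 0.12). Of 19 transcription factors tied to epithelial to mesenchymal transition, 1 was high and 7 were mid (42.1%), or 5 in all with the mean over all probe sets. The chromatin factor HMGA2 was high at 9.31, 9.10 and 9.29, and the inhibitors of differentiation ID1 (7.96 ± 0.19) and ID2 (7.47 ± 0.29) were mid. TWIST1 was at 5.23, 4.38 and 5.70, and ZEB1 at 4.63, 3.56 and 5.01. Both were lowest on replicate 2, where ZEB1 fell below the limit. SNAI1 (2.76 ± 0.43), SNAI2 (3.66 ± 0.35) and ZEB2 (1.90 ± 0.34) were near the array median.

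Among matrix genes, type IV collagen and fibronectin were high, and the fibrillar collagens named below were near the array median. Of 29 collagens, 2 were high and 2 mid (13.8%). The basement membrane chains COL4A2 (8.91, 8.89 and 9.29) and COL4A1 (8.69, 8.55 and 9.05) were high on every array, and COL6A1 (7.12 ± 0.07) and COL18A1 (4.44 ± 0.38) were mid. The fibrillar COL1A1 (2.05 ± 0.18), COL1A2 (1.65 ± 0.12), COL3A1 (1.68 ± 0.28) and COL5A1 (2.04 ± 0.39) were in the range of the bacterial controls. The second probe sets of COL4A1 and COL4A2 had means of 5.97 and 6.33, in the mid class.

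Of 14 laminin and basement membrane genes, 6 were mid and 0 high (42.9%). These were the laminin chains LAMC1 (7.90 ± 0.41), LAMB1 (7.20 ± 0.75) and LAMB3 (6.15 ± 0.30), the nidogens NID1 (6.37 ± 0.45) and NID2 (4.46 ± 0.75), and agrin AGRN (6.26 ± 0.21). None of the 4 measured laminin alpha chains reached 4; LAMA5, the alpha chain of mature kidney basement membranes, was at 3.32 ± 0.39. Of 29 matrix glycoproteins, 6 were high and 7 mid (44.8%). Fibronectin FN1 was high at 10.74, 11.01 and 11.30, and 4 of its 6 probe sets had means from 10.82 to 11.01 while the other 2 had 3.32 and 3.21. TGFBI (8.19 ± 0.38), SPARC (8.18 ± 0.26) and tenascin TNC (8.01 ± 0.19) were high as well. CCN2, a growth factor binding matricellular protein, was at 6.76, 7.03 and 5.75, lowest on replicate 3. Periostin POSTN (1.53 ± 0.07), elastin ELN (1.81 ± 0.18) and fibrillin FBN1 (3.31 ± 0.66) were near the array median.
The promoter of FN1 (chr2:215436069-215436318, − strand) is shown because FN1 is among the matrix genes with the strongest signal and its promoter carries a cyclic AMP response element, TGACGTCA, in capitals together with a CCAAT box.
FN1: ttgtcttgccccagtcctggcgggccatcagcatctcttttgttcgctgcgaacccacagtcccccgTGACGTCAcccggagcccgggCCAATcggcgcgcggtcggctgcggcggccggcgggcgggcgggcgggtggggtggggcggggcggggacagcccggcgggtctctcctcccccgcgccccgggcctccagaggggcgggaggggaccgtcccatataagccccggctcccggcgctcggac
The response element begins 183 and the CCAAT 162 bases before the start. TGACGTCA was in 3.06% of the 9562 promoters and in 2.84% of those of high genes.

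Of 17 proteoglycans, 4 were high and 3 mid (41.2%): CD44, the syndecans SDC2 (8.67 ± 0.26) and SDC4 (8.51 ± 0.17) and versican VCAN (8.36 ± 0.41) were high, with glypican GPC4 (7.59 ± 0.43), LUM and SDC1 (6.12 ± 0.23) mid. Of 31 matrix proteases and inhibitors, 5 were high and 7 mid (38.7%). The protease inhibitor TIMP1 was at 10.22, 10.15 and 10.06, and the urokinase PLAU at 9.57, 9.49 and 9.76. The tissue activator PLAT (8.21 ± 0.36), its inhibitor SERPINE2 (8.15 ± 0.33) and ADAM10 (8.10 ± 0.40) were high and the urokinase receptor PLAUR (7.65 ± 0.11) mid. Of 13 matrix metalloproteinases, 1 reached 4, the collagenase MMP1 at 5.36, 4.16 and 5.82. MMP2 (1.70 ± 0.06), MMP9 (3.01 ± 0.35) and MMP14 (2.64 ± 0.08) were near the array median. Of 18 collagen processing genes, 5 were high and 7 mid (66.7%), including the isomerases PPIB (9.77 ± 0.03) and P4HB (8.92 ± 0.28), the cross-linking LOXL2 (9.15 ± 0.30), the lysyl hydroxylase PLOD2 (8.33 ± 0.52) and the collagen chaperone SERPINH1 (8.13 ± 0.06). LOX itself was at 2.96 ± 0.62.

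Of 216 measured genes of the receptor family, 51 were mid or high (23.6%, beside 34.8% of all genes), a difference that was not tested. Of 7 receptors for the medium supplements, 3 were mid or high, or 1 with the mean over all probe sets. Transferrin receptor TFRC was high at 8.48, 8.78 and 9.01 and the EGF receptor EGFR was mid at 7.54, 7.34 and 7.62. Of the 6 EGFR probe sets, 1 other reached 4. The glucocorticoid receptor NR3C1 was at 5.39, 4.52 and 6.26, a spread of 1.74 with replicate 2 lowest. Its other probe sets had means of 4.43, 2.22 and 1.97. The insulin receptor INSR (2.36 ± 0.29), IGF1R (3.66 ± 0.45) and the thyroid hormone receptors THRA (1.76 ± 0.18) and THRB (2.08 ± 0.09) were near the array median. Of 37 receptor tyrosine kinases, 1 was high and 5 mid (16.2%), or 3 in all with the mean over all probe sets: the hepatocyte growth factor receptor MET (8.33, 7.96 and 8.71), then AXL (7.73 ± 0.33), EGFR, RYK (7.25 ± 0.33), FGFR1 (6.89 ± 0.25) and EPHA2 (4.28 ± 0.10). Other probe sets of MET had means from 1.77 to 2.72, and the other AXL probe set had 3.68. ERBB2 (3.40 ± 0.26), ERBB3 (1.61 ± 0.45) and KIT (1.35 ± 0.21) were near the array median.

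For the TGF-beta family, 1 of 13 receptors was high and 2 were mid (23.1%, beside 34.8% of all genes). With the mean over all probe sets, 1 receptor was mid or high. The activin type I receptor ACVR1B was at 8.10, 8.01 and 8.58, the TGF-beta type II receptor TGFBR2 at 5.58, 5.18 and 5.47, and ACVR1 at 4.61, 4.63 and 5.22. The type I receptor TGFBR1 was read by 1 probe set, at 1.04, 1.10 and 1.00, within the range of the bacterial controls. Of 16 SMADs and regulators, 1 was high and 4 mid (31.2%), 3 in all with the mean over all probe sets. The repressor TGIF1 was high (8.24 ± 0.09); SMURF2 (6.17 ± 0.08), SMAD1 (5.17 ± 0.43), the common SMAD4 (5.02 ± 0.74) and SMAD2 (4.73 ± 0.09) were mid; SMAD3 (3.47 ± 0.24) and the inhibitory SMAD7 (3.59 ± 0.79) were near the array median. Of 20 ligands and binders, 5 were mid and 0 high (25%), or 3 with the mean over all probe sets: the antagonist GREM1 (7.71 ± 0.14), GDF15, LTBP2 (6.59 ± 0.07), TGFB1 itself at 4.98, 5.72 and 4.87, and BMP2 (4.37 ± 0.03). TGFB2 (3.33 ± 0.14), INHBA (3.17 ± 0.16) and BMP7 (2.14 ± 0.12) were near the array median.

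Of 21 integrin subunits, 2 were high and 4 mid (28.6%). The beta subunit ITGB1 was high at 10.20, 10.01 and 10.63 on 1 probe set, while its 4 other probe sets had means of at most 1.54. ITGAV (8.79 ± 0.46) was high, and ITGA3 (7.22 ± 0.42), ITGB5 (6.84 ± 0.10), ITGB3 (4.90 ± 0.39) and ITGA5 (4.66 ± 0.62) were mid. The leukocyte subunits ITGAL (2.02 ± 0.30), ITGAM (1.40 ± 0.03) and ITGB2 (1.66 ± 0.01) were near the array median. Of 33 cytokine, death and Toll-like receptors, 12 were mid and 0 high (36.4%), led by TNFRSF1A (7.95 ± 0.16), the shared interleukin receptor chain IL6ST (7.51 ± 0.36), and TNFRSF10B (6.87 ± 0.13). The specific chains IL6R (2.27 ± 0.34) and IL11RA (1.30 ± 0.01) and the Toll-like receptors TLR2 (1.86 ± 0.07), TLR3 (1.53 ± 0.12) and TLR4 (1.52 ± 0.06) were near the array median.

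Of 29 nuclear receptors, 6 were mid and 0 high (20.7%), or 2 with the mean over all probe sets: NR2F6 (6.27 ± 0.19), NR3C1, RXRA (5.25 ± 0.13), NR2C1 (5.24 ± 0.57), NR1D2 (4.49 ± 0.78) and PPARD (4.19 ± 0.34). The vitamin D receptor VDR (2.09 ± 0.13), the mineralocorticoid receptor NR3C2 (2.12 ± 0.36) and PPARA (2.36 ± 0.38) were near the array median. Of 27 G protein-coupled receptors of kidney and vessel, 1 was mid (3.7%), the prostaglandin receptor PTGER2 at 4.95, 4.56 and 5.57. The angiotensin receptor AGTR1 (1.73 ± 0.49), the parathyroid hormone receptor PTH1R (1.78 ± 0.17) and the dopamine receptor DRD1 (1.54 ± 0.33) were near the array median. Of 19 Notch, Wnt and Hedgehog genes, 6 were mid (31.6%): FZD6 (7.66 ± 0.28), NOTCH2 (7.65 ± 0.23), FZD2 (6.40 ± 0.22), the Notch ligand JAG1 (5.39 ± 0.82), FZD7 (5.15 ± 0.46) and FZD5 (4.43 ± 0.60). The other JAG1 probe sets had means of 4.43, 2.31 and 1.95.

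Markers of other cell types that a kidney sample could hold were near the array median. Of 12 endothelial genes 0 reached 4, and the range of means was 1.14 to 2.33, with PECAM1 at 1.43 ± 0.07 and VWF at 1.24 ± 0.26. Of 14 leukocyte genes 0 reached 4, and the range was 0.74 to 1.98, with PTPRC at 1.56 ± 0.14. The list medians were 1.49 and 1.51.

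Nearly all genes on the cell division and glycolysis lists were mid or high. All 27 cell cycle genes reached 4, 12 of them high (100% mid or high). The replication clamp PCNA was at 10.34, 10.55 and 10.50, thymidylate synthase TYMS at 10.23, 10.18 and 10.22, and the ribonucleotide reductase subunit RRM2 at 9.46, 9.07 and 9.44. MKI67, the proliferation antigen, was at 6.36, 5.29 and 6.29. Of 19 glycolysis genes, 10 were high and 8 mid (94.7%), with ENO1 (11.35 ± 0.22), PGK1 (11.29 ± 0.24) and both lactate dehydrogenase subunits, LDHA (11.24 ± 0.16) and LDHB (11.40 ± 0.02), high. Of 19 fatty acid oxidation genes, 2 were high and 10 mid (63.2%), namely ECHS1 (9.01 ± 0.20) and ETFA (8.28 ± 0.02) high and HADHB (7.99 ± 0.04) and ACADM (6.86 ± 0.23) among the mid. The carnitine transferases CPT1A (2.93 ± 0.35) and CPT2 (2.19 ± 0.22) and the coactivator PPARGC1A (1.75 ± 0.37) were near the array median.

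Of 21 p53 and RB pathway genes, 2 were high and 10 mid (57.1%). CDKN2A, a locus that encodes the kinase inhibitor p16 and, from an overlapping transcript, p14ARF, was high at 9.70, 9.84 and 9.51; which transcript the probe set reads was not tested. The kinase CDK4, a target of p16, was high (9.46 ± 0.29). The 2 other CDKN2A probe sets had means of 7.22 and 2.96. RB1 (6.97 ± 0.69) and the p53 target CDKN1A (6.08 ± 0.32) were mid, and MDM2 (1.99 ± 0.28), CDKN2B (1.59 ± 0.04) and telomerase TERT (1.95 ± 0.15) were near the array median. Of 19 oxidative stress and detoxification genes, 11 were high (73.7% mid or high), with the metallothioneins MT2A (11.77 ± 0.10) and MT1X (10.66 ± 0.12), ferritin FTL (11.67 ± 0.12) and peroxiredoxin PRDX1 (11.10 ± 0.03) among them, while HMOX1 (2.29 ± 0.23) and SLC7A11 (3.43 ± 0.09) were near the array median. Of 14 antigen presentation genes, B2M (11.16 ± 0.16), HLA-C (9.48 ± 0.18) and HLA-B (9.06 ± 0.15) were high and 5 were mid (57.1%). CD74 (7.36 ± 0.21) and HLA-DMB (5.77 ± 0.68) were mid, whereas HLA-DRA (1.32 ± 0.24) and the class II regulator CIITA (1.82 ± 0.13) were near the array median.

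Of 31 cytokines and growth factor ligands, 4 were high and 9 mid (41.9%). MIF (11.19 ± 0.06), the chemokine CXCL8 (8.66, 9.24 and 9.03), the EGF receptor ligand TGFA (8.86, 8.73 and 9.22) and VEGFA (8.73 ± 0.41) were high. The other VEGFA probe sets had means of 6.26, 3.73 and 2.93, and the lowest TGFA probe set had 2.72. The EGF family ligand EREG (7.75 ± 0.60), IL18 (7.16 ± 0.24) and IL6 (6.90 ± 0.24) were mid. CCL2 (1.08 ± 0.13), CXCL1 (1.20 ± 0.25), IL11 (2.36 ± 0.30) and TNF (1.76 ± 0.11) were near the array median.

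The 3 runs were not alike in every gene group. Arrays correlated at 0.989 (replicates 1 and 2), 0.991 (1 and 3) and 0.985 (2 and 3) over all probe sets. Of the 4165 mid or high genes, 430 (10.3%) differed at least 2-fold between some pair of arrays. Replicate 3 exceeded replicate 2 at least 2-fold in 226 genes (5.43%) and was below it in 111 (2.67%). Against replicate 1, replicate 2 was higher in 32 (0.768%) and lower in 110 (2.64%), and replicate 3 was higher in 54 (1.3%) and lower in 28 (0.672%). Each run is 1 array, so these differences have no replicate and no p-value. The 10 genes with the largest SD ran from 1.06 to 1.45, and 8 of them were lowest on replicate 2. The glucose transporter SLC2A3 varied most, at 5.29, 4.15 and 7.02. TIA1, an RNA-binding protein of stress granules, had a mean of 5.06 ± 1.23 with replicate 2 lowest. NRG1, a ligand of ERBB receptors, had a mean of 6.51 ± 1.18 with replicate 3 lowest, and the cold-inducible RNA-binding protein CIRBP at 5.18, 7.21 and 5.44. The others were BCL6, INSIG2, CEP57, MED23, RSRP1 and CDK19, with SDs from 1.06 to 1.13.

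Most mid or high matrix, adherens junction and receptor genes took their highest value on replicate 3. Of the 54 mid or high matrix genes 41 (75.9%) were highest on replicate 3, as were 34 of 51 receptor genes (66.7%), against 1742 of all 4165 mid or high genes (41.8%). After quantile normalization over the 3 arrays the counts were 40 of 54 (74.1%), 32 of 51 (62.7%) and 1445 of 4165 (34.7%). Receptor family lists differed on the values as deposited. Replicate 3 was highest in 2 of 5 TGF-beta family ligands and binders (40%) and 5 of 12 cytokine, death and Toll-like receptors (41.7%). It was highest in all 6 mid Notch, Wnt and Hedgehog genes. All 9 mid or high adherens junction and desmosome genes were highest on replicate 3 (8 after quantile normalization), and 11 of 12 collagen processing genes (11 after it). Of 18 mid or high glycolysis genes 15 were highest on replicate 3 and 16 lowest on replicate 1, and 10 and 15 after quantile normalization. These are descriptions of 3 arrays with no test. Of 25 lists with at least 6 mid or high genes, 21 had their highest median deviation on replicate 3, on the values as deposited. Over all 4165 mid or high genes the median deviations were -0.023, 0.004 and 0.035 on replicates 1 to 3. Replicate 3 was thus highest over all genes as well by this measure. How far this general difference bears on the count of lists was not tested. By count of genes, replicate 2 led after quantile normalization, highest in 1618 (38.8%) against 1445 (34.7%) for replicate 3. The largest deviation of any array was 0.04 for ribosomal protein genes, 0.05 for cell cycle genes and 0.02 for fatty acid oxidation genes. Measures of the arrays also differed: 28.7%, 28.2% and 29.3% of probe sets were at 4 or above on replicates 1 to 3, and the log2 difference between the 3′ and 5′ control probe sets was 1.15, 1.02 and 1.09 for beta-actin and 0.33, 0.27 and 0.16 for GAPDH. Their part in these differences was not tested.

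**Figure D4:**
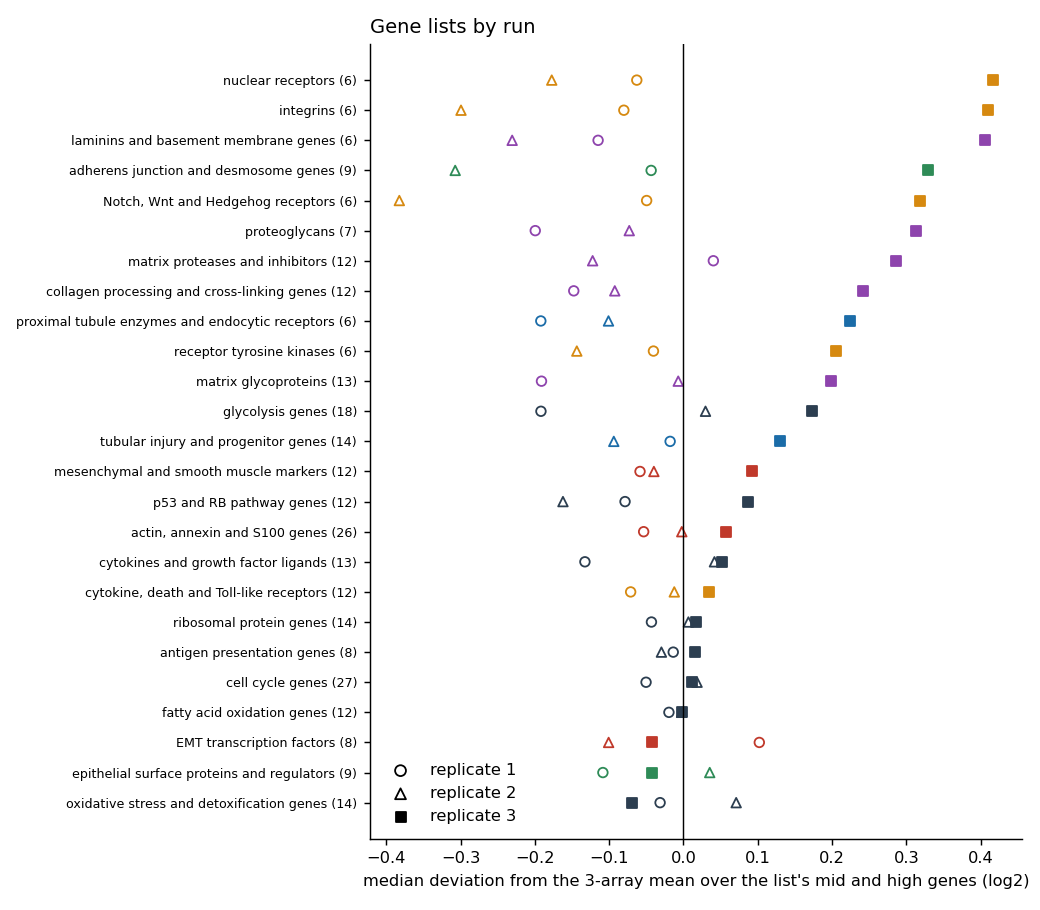
Median deviation (log2) of each array from the 3-array mean over the mid and high genes of each list with at least 6 such genes (number in brackets), with open circles, open triangles and filled squares for replicates 1, 2 and 3. Replicate 3 is farthest to the right in 21 of 25 lists, with values up to 0.42 for nuclear receptors. Over all mid or high genes its median deviation was 0.035, also the highest of the 3 arrays.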

How the data were processed

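Total RNA from 3 untreated HK-2 runs was hybridised to 1-colour Affymetrix arrays. The values are log2 expression per probe set as deposited by the authors, with GCRMA named in the submitters' processing notes; its version and settings are not given in the sources used here. GCRMA models background from probe sequence and makes the arrays' distributions alike, so a common shift between runs would be reduced.

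Of 22277 probe sets, 19070 have 1 gene symbol in the platform annotation, 1043 have several and 2164 none; 19058 were matched to current symbols by gene ID. The brightest probe set by 3-array mean represented a gene, a rule that favours bright probe sets. Means, SDs and ranks were computed with Python 3.11.15, pandas 2.3.3 and numpy 2.4.6, and the code was tested on simulated data. With 1 group there is no test and no p-value. Array number limits the precision. The labels number the runs but all 3 are of 1 cell line, so the spread is between runs. Members and the 41 gene lists were chosen with earlier results of these data known. Genes named are the 20 highest, the 10 with the largest SD at a mean of at least 4, up to 5 top members of each list with others that define its cell type or pathway, and those nearest the limits of 4 and 8; some further list members are given as examples. Alternatives were other class limits, other probe set rules, quantile normalization and leaving out each array; equal array medians was chosen after seeing the data. The 6 treated arrays were not used.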

Additional observations from a re-analysis of the deposited data

How the results depend on the processing

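No paired analysis was possible because the results come from no test and 1 group. The counts of high, mid and near-median genes and of families stayed within 1.5 times of the values above under every alternative except one: with the mean over all probe sets of a gene, 32 receptor genes were mid or high in place of 51. The count of genes differing at least 2-fold between runs, 430, became 275 with that mean. It ranged from 89 to 337 when each array was left out in turn, 89 without replicate 2 and 135 without replicate 3; a pair of arrays gives fewer chances to differ than 3 arrays. Requiring every array to reach the limit gives no value for this count. Among single lists, 8 of 41 moved by over 1.5 times with the mean over all probe sets (proximal tubule transporters, transcription factors of epithelial to mesenchymal transition, and 6 receptor family lists, with values given above). With class limits of 3.5 and 7.5, fibroblast genes and G protein-coupled receptors each went from 1 to 2. Keratins fell from 4 to 2 without probe sets that can match related sequences, and transcription factors of epithelial to mesenchymal transition fell from 8 to 5 when every array had to reach the limit. Equal array medians, chosen after seeing the data, gave 418 genes with a 2-fold difference. Signal near the bacterial controls limits what can be said of 5331 genes, and 189 of 473 high genes with several probe sets have another probe set under 4.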

Other observations

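Probe sets outside the named genes also carried signal. Of the 1043 probe sets with several gene symbols, 146 were high and 212 mid. Of 2108 probe sets with no symbol that are not controls, 91 were high and 280 mid. They were left out of the gene counts above.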
